A study of Mus musculus with 52 samples.

Results

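Ribosome footprints were read from the cytosol fraction of mouse embryonic fibroblasts after 1 h in thapsigargin (Tg) and set against the same fraction of untreated cells. Of 22417 genes in the deposited table, 10113 held a score in both cytosol columns. These 10113 genes are described here, and their choice used no difference between the columns. The study followed footprints and mRNA in ER and cytosol fractions at 0.5, 1, 2 and 4 h of Tg and in untreated cells, in 40 of its 52 libraries, while its dithiothreitol arm was not analysed here. The treated and the untreated cells shared 1 genotype, CReP+/-; GADD34+/+ (WT), so both were heterozygous for CReP, a constitutive subunit of the phosphatase that acts on the translation factor eIF2 alpha. GADD34, the inducible subunit, was wild type in both. The cytosol footprints at 1 h and in untreated cells each came from 2 replicates, which the table merges into 1 score per gene. No difference could therefore be held against a spread between replicates, none was tested, and the depth behind a score is unknown. The labels do not say whether the replicates came from separate cultures.

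Tg blocks the pump that fills the endoplasmic reticulum (ER) with calcium. Loss of calcium disturbs protein folding there and sets off the unfolded protein response, in which the kinase PERK phosphorylates eIF2 alpha and lowers general initiation of translation, while mRNAs with inhibitory upstream reading frames, such as that of Atf4, are read more. The mRNAs of secreted and membrane proteins are normally translated on ribosomes bound to the ER membrane, whereas cytosolic, nuclear and most mitochondrial proteins are made on free ribosomes. A footprint in the cytosol fraction marks a ribosome that was not recovered with the ER.

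A difference below is log2(score + 1) at 1 h minus log2(score + 1) in untreated cells, a scale that understates the change of genes with low scores. A gene is counted as over 2-fold when its difference exceeds 1 in size. The deposited table has a column of TRUE and FALSE with no header over it. Its TRUE genes are called marked, and what the column stands for is not stated. It marked 1528 of the 10113 genes, among them 23 of 23 ER chaperones, 25 of 25 lysosomal proteins and 47 of 48 matrix and secreted proteins, but 0 of 32 proteins of the small ribosomal subunit. The fibroblast identity was checked on 12 fibroblast markers, of which 12 had a cytosol score at 1 h and 11 in untreated cells. Their summed cytosol score was 7755 at 1 h, against 6994 in untreated cells, most of it S100a4 and Vim. Among the blood cell markers, Ptprc, Csf1r, Itgam, Lyz2, Tyrobp and Emr1 were blank in both fractions at both times, and the 8 blood cell markers in the table summed to 7.43 at 1 h, against 2.64 in untreated cells, through Cd14 alone. Of the epithelial markers only Krt19 had a cytosol score (7.44 at 1 h, against 2.56 in untreated cells), and of the endothelial markers only Kdr (0.144 at 1 h, blank in untreated cells). Tubb3 and Map2 of the neural list summed to 76.0 at 1 h and 53.7 in untreated cells, and of the muscle list only Acta1, whose sequence is close to that of other actins, had a score (470 at 1 h, 389 in untreated cells).

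After 1 h of Tg, cytosol scores were higher for many genes and lower for few. Of the 10113 genes, 1420 were over 2-fold higher at 1 h (14%) and 298 were over 2-fold lower (2.95%), with a median difference of 0.10. Marked genes were 15.1% of all. Their median difference was 1.04, with 784 of 1528 over 2-fold higher (51.3%) and 12 lower, whereas unmarked genes had a median of 0.03, with 636 of 8585 over 2-fold higher (7.41%) and 286 lower. Marked genes held 6.75% of the summed cytosol score at 1 h, against 4.49% in untreated cells. The deposited scores of the 10113 genes summed to 745875 at 1 h and 626903 in untreated cells, a ratio of 1.19, and the scaling the authors used is not stated. Scaled to the same sum, the 2 columns gave 1107 genes over 2-fold higher and 659 lower, so that 62.7% of the calls were higher, against 82.7% on the deposited scale. The median of all genes was then -0.10, and the medians of marked and unmarked genes lay 1.06 apart, against 1.02 on the deposited scale.

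**Figure D1:**
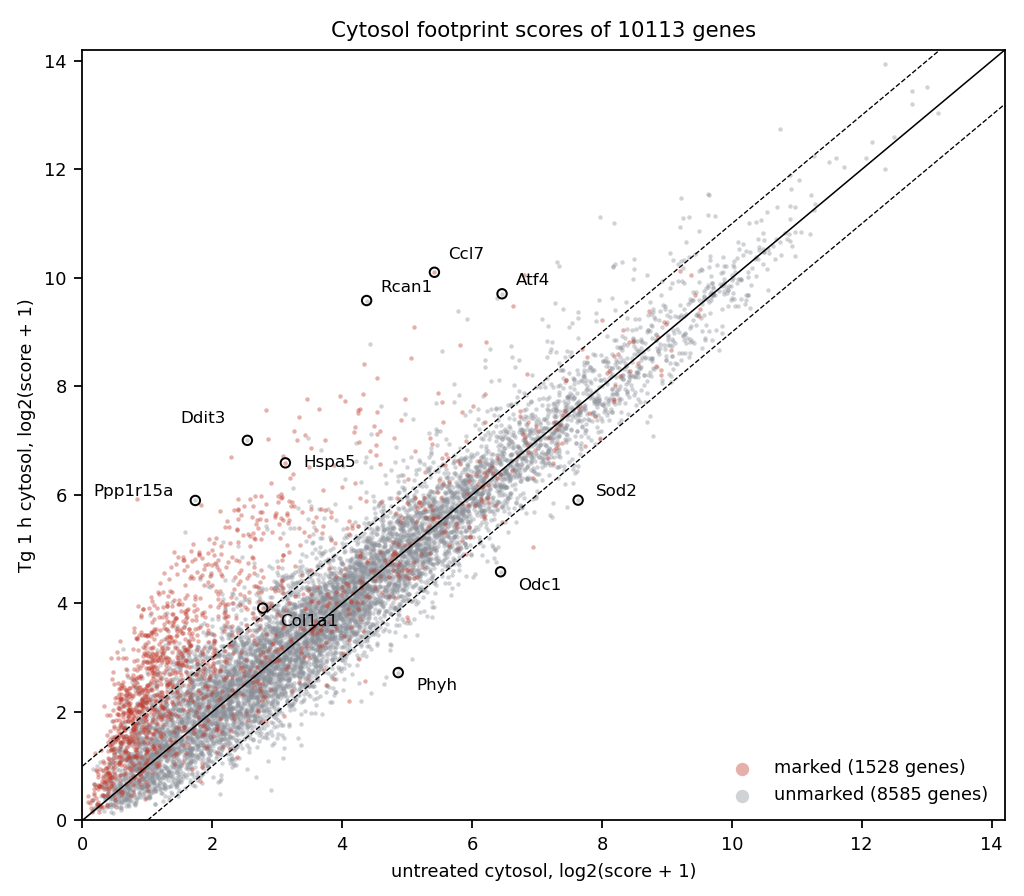
Each point is 1 of the 10113 genes, with the cytosol footprint score at 1 h of Tg on the vertical axis and that of untreated cells on the horizontal axis, both as log2(score + 1). The solid line marks equal scores and the dashed lines a 2-fold difference; marked genes (red) lie above the upper dashed line in 784 of 1528 cases, unmarked genes (grey) in 636 of 8585.

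Over 5 equal bins of mean level, the median difference of unmarked genes lay between 0.01 and 0.05. Marked genes had medians of 0.75, 1.65, 1.58, 0.83 and 0.33, in order of rising level. The share of all genes over 2-fold higher was largest in the second bin (22%) and 10.0% in each of the 2 highest bins.

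The 12 genes with the highest differences, ranked only where their mean level exceeded that of the median gene, comprised stress regulators and early response genes, chemokines, and proteins of the cell surface. Rcan1, an inhibitor of the calcium-activated phosphatase calcineurin, led them with 766 at 1 h, against 19.8 in untreated cells, a difference of 5.21. Ptgs2, the inducible cyclooxygenase that makes prostaglandins, had 188 at 1 h and 6.10 in untreated cells (4.73). Ccl7, a chemokine that attracts monocytes, stood at 1100.2 at 1 h, against 41.8 in untreated cells (4.68). Ccl2, a related chemokine, had 547 and 33.6 (3.99), and Cxcl10, an interferon-inducible chemokine, had 172 and 9.12 (4.09), each at 1 h and in untreated cells. Cd44, the hyaluronan receptor, had 129 at 1 h and 6.25 in untreated cells (4.17). Cd9, a tetraspanin of the plasma membrane, had 339 at 1 h and 19.2 in untreated cells (4.08). Tm4sf1, Tmem50a and Myadm, all membrane proteins, had differences of 4.32, 3.98 and 3.94. The other two of the 12, Ddit3 and Ppp1r15a, belong to the next group. Of 539 genes over 2-fold higher above the median level, 102 were left out of this ranking by the form of their symbols. Such symbols, among them those of histone and ribosomal protein genes and provisional ones, were taken to make near-identical copies likely, which was not checked per gene. Of the 102, 2 with provisional symbols, 1500012F01Rik and Gm20594, would have ranked among the 12.

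Of 10 genes whose mRNAs carry upstream reading frames, 7 were over 2-fold higher in the cytosol and 0 lower, with a median of 2.11. Ddit3, which encodes the transcription factor CHOP, had 128 at 1 h, against 4.82 in untreated cells (4.47). Ppp1r15a, which encodes GADD34, had 58.6 at 1 h and 2.34 in untreated cells (4.16). Atf4, the central transcription factor of the response to eIF2 alpha phosphorylation, had 836 and 87.1 at 1 h and in untreated cells (3.25). Ifrd1, a transcriptional coregulator, had 358 and 72.1 (2.29). Ppp1r15b, which encodes CReP and is heterozygous here, stood at 3.68 at 1 h and 0.96 in untreated cells (1.25), scores at which little can be read from a fold. In the ER fraction the same 10 genes had a median of 1.84, with 6 over 2-fold higher, against 5.49% of the genes measured there, and 1 lower, against 6.3%. Of 22 targets of ATF4 and CHOP, 7 were over 2-fold higher and 1 lower, with a median of 0.43. Higher were 4 of the 5 marked targets, with a median of 1.56, and 3 of the 17 unmarked ones, with a median of 0.13. Herpud1, a membrane protein of ER-associated degradation, had 34.1 at 1 h and 3.49 in untreated cells (2.96). Slc3a2, the heavy chain of amino acid transporters, had 57.4 and 8.33 (2.65). Atf3, a stress-induced repressor, had 45.8 and 10.1 (2.08), and Chac1, which degrades glutathione, had 41.3 and 10.9 (1.83).

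Immediate early genes, which are transcribed within minutes of a stimulus, had a median of 1.24 in the cytosol. Of 30, 17 were over 2-fold higher and 0 lower. Beside Rcan1 and Ptgs2, Ier3, a regulator of survival signalling, had 131 at 1 h and 10.1 in untreated cells (3.57), and Klf10, a zinc-finger repressor, had 97.0 and 19.4 (2.26). Fos had 4.83 at 1 h, against 0.770 in untreated cells (1.72). Egr1 was within 2-fold, with 25.1 at 1 h and 20.1 in untreated cells (0.31). Short-lived repressors and feedback regulators were mixed, with 6 of 24 over 2-fold higher, 2 lower and a median of 0.62. Cited2, a transcriptional coregulator, had 744 at 1 h and 154 in untreated cells (2.27). Id1, an inhibitor of differentiation factors, had 260.4 and 99.1 (1.38), and Azin1, which protects ornithine decarboxylase from antizyme, had 86.9 and 34.1 (1.32). Odc1, ornithine decarboxylase itself, was lower, with 23 at 1 h and 85.7 in untreated cells (-1.86).

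Chemokines, cytokines and feedback genes of NF-kB, a transcription factor of inflammation, had 10 of 18 genes over 2-fold higher, 0 lower and a median of 1.42. Higher were 8 of its 8 marked genes and 2 of its 10 unmarked ones. Csf1, the macrophage growth factor, had 41.5 at 1 h, against 3.77 in untreated cells (3.16). Promoter sequences of RefSeq, which span 250 bases before to 50 after an annotated start on build GRCm38.p6, were matched by symbol to 7372 of the 10113 genes. A gene was counted for a motif when any promoter under its symbol held the letters, and the first such promoter is the one shown. The NF-kB letters, GGG and TTTCC with 2 bases of any kind between them, searched on both strands, were found in 6 of the 11 matched genes of this list and in 150 of the 7372 (2.03%). Over the whole promoter table they were found in 1.89% of genes. Those 6 promoters are shown because they hold the letters, given 5′ to 3′ on the strand of the gene, with every match in capitals and 20 bases on either side of the first. The stretch of Cxcl1 holds 2 matches and the others 1 each.
Csf1, chr3:107760594-107760643, minus strand: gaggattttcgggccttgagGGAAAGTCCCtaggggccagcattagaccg
Cxcl1, chr5:90891136-90891185, plus strand: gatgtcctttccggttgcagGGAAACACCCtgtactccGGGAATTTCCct
Il6, chr5:30013050-30013099, plus strand: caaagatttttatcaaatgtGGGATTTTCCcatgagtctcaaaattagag
Tnfaip3, chr10:19015393-19015442, minus strand: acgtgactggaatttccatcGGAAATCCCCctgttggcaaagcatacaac
Nfkbia, chr12:55492647-55492696, minus strand: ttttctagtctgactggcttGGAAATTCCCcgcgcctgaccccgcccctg
Nfkb2, chr19:46304706-46304755, plus strand: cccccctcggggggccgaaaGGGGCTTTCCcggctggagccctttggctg
The genes shown differed in their footprints. Csf1, Cxcl1 and Il6 had cytosol differences of 3.16, 2.95 and 2.80, and ER differences of 0.35, 1.30 and 0.02. Tnfaip3 and Nfkbia, inhibitors of NF-kB signalling, had 2.20 and 1.68 in the cytosol and 1.91 and 2.06 in the ER. Nfkb2, a subunit of NF-kB, holds the letters too and had -0.08 in the cytosol. The 6 genes had a cytosol median of 2.50 and the other 5 matched genes 0.10. In the ER the same groups had medians of 0.82 and 0.82. Whether the letters go with either value was not tested, and the list also divides by the marked class, as given above. No stretch printed here or below holds the letters of a different motif searched. The motifs searched also included TGATG and AAT with 1 base of any kind between them. These letters were found in 40 of the 7372 matched genes (0.543%). They were in 2 of 19 matched targets of ATF4 and CHOP, and in 3 of 12 matched aminoacyl-tRNA synthetases, a list near 0 in the cytosol. A match describes letters in a window and is neither a binding site nor a cause.

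The palindrome TGACGTCA, bound by factors of the CREB and ATF families, was found in 288 of the 7372 matched genes (3.91%). It was in 2.03% of all genes of the promoter table and in 4 of 24 matched immediate early genes. It was also found in 4 of 34 matched genes of the large ribosomal subunit (11.8%), a list near 0 in the cytosol. Its matches in Rcan1, an immediate early gene, and Ppp1r15a, which is outside that list, are shown because both rank among the 12 highest. They were thus picked by their differences. The other immediate early genes that hold it, Btg2, Dusp1 and Maff, had cytosol differences of 1.91, 1.18 and 0.98.
Rcan1, chr16:92400226-92400273, minus strand: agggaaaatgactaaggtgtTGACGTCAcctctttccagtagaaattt
Ppp1r15a, chr7:45526253-45526300, minus strand: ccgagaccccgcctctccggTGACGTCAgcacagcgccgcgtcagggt
The match began 175 bases before the annotated start in Rcan1 and 12 bases before it in Ppp1r15a.

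Among the 29 gene lists, ER chaperones and folding enzymes had the highest share over 2-fold higher, 22 of 23 genes with 0 lower, and a median of 2.42. Calr, which encodes the lectin chaperone calreticulin, had 225 at 1 h, against 14.7 in untreated cells (3.85). Hspa5, which encodes the ER chaperone BiP, had 95.4 at 1 h and 7.72 in untreated cells (3.47). Manf, a secreted stress protein of the ER, had 188 and 17.8 (3.33), and Pdia6, a disulfide isomerase, had 46.0 and 4.26 (3.16). Hsp90b1, which encodes GRP94, had 49.8 and 6.86 (2.69). In the ER fraction, where these mRNAs are mostly translated, the same 23 genes had a median of -0.61, with 0 over 2-fold higher and 6 lower. Hyou1, a large chaperone and, as seen in the values, the list's exception, had 2.74 at 1 h and 0.953 in untreated cells in the cytosol (0.94). Calr had 1328 in the ER at 1 h and 1522 in untreated cells, and Hspa5 1057 at 1 h and 711 in untreated cells. The ER share of the summed score of both fractions had a median over the list of 86.4% at 1 h, against 98.7% in untreated cells.

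The ER stress element, CCAAT and CCACG with 9 bases of any kind between them, is the sequence through which ATF6 and XBP1 are known to induce ER chaperone genes. It was found on either strand in 7 of 18 matched chaperone genes (38.9%). Over all 7372 matched genes it was in 11 (0.149%), and in 0.137% of all genes of the promoter table. All 7 are shown for comparison of their letters, with the match in capitals.
Calr, chr8:84847055-84847113, minus strand: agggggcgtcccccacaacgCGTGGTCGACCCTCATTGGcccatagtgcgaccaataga
Hspa5, chr2:34772005-34772063, plus strand: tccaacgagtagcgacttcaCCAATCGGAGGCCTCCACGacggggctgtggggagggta
Pdia6, chr12:17266471-17266529, plus strand: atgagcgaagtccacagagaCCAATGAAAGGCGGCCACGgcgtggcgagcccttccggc
Canx, chr11:50325780-50325838, minus strand: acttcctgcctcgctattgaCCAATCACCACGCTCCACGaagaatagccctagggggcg
Hsp90b1, chr10:86705618-86705676, minus strand: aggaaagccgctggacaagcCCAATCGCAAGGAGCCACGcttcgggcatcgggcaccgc
Dnajc3, chr14:118937807-118937865, plus strand: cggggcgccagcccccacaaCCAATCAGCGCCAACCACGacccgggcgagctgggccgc
Creld2, chr15:88819500-88819558, plus strand: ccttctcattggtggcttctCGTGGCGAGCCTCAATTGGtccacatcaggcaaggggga
The matches began between 65 and 212 bases before the annotated start. The cytosol differences of these 7 genes lay between 1.47 for Creld2 and 3.85 for Calr, and their ER differences between -0.70 for Canx and 0.57 for Hspa5. The 7 genes had a cytosol median of 2.98, and the other 11 matched genes of the list, in whose windows these letters were not found, had 2.42 and were all over 2-fold higher.

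The other secretory lists had similar values. Extracellular matrix and secreted proteins had 33 of 48 genes over 2-fold higher, 0 lower and a median of 1.52 in the cytosol, and a median of -0.85 in the ER with 19 lower. Fstl1, a secreted glycoprotein, had 115 at 1 h and 10.5 in untreated cells (3.34). B2m, the light chain of MHC class I, had 1064 and 110.2 (3.26), and Sparc, a collagen-binding protein, had 82.6 and 8.51 (3.14). Col1a1, a chain of type I collagen, had 14.1 at 1 h, against 5.85 in untreated cells (1.14), beside 383 and 827 in the ER (-1.11). Fn1, fibronectin, had 7.48 and 4.00 in the cytosol (0.76) and 124 and 250.1 in the ER (-1.0). Rapidly induced matricellular and growth factor genes had 12 of 15 over 2-fold higher and a median of 2.71, beside -0.18 in the ER. Timp1, an inhibitor of metalloproteinases, had 232 at 1 h and 18.9 in untreated cells (3.55). Ctgf, a matricellular growth modulator, had 35.2 and 2.88 (3.22), and Ereg, an EGF receptor ligand, had 26.9 and 3.26 (2.71).

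Surface receptors and adhesion proteins had 26 of 33 genes over 2-fold higher and 0 lower, with a median of 1.61, beside -0.72 in the ER. The tetraspanins Cd81 and Cd63 followed Cd44 and Cd9, with 59.8 and 129 at 1 h, against 4.98 and 12.3 in untreated cells. Lysosomal proteins had 22 of 25 over 2-fold higher and a median of 1.92, beside -0.77 in the ER. Npc2, which carries cholesterol out of lysosomes, had 151 at 1 h and 17.3 in untreated cells (3.05). Laptm4a, a lysosomal membrane protein, had 90.7 and 10.2 (3.03). Psap, the precursor of sphingolipid activators, had 35.6 and 5.28 (2.54), and Ctsl, a cysteine protease, had 38.4 and 5.85 (2.52). The machinery of ER entry and early secretion had 29 of 42 over 2-fold higher and a median of 1.92. Its highest genes were Ssr1 and Ssr2, subunits of the translocon-associated complex, at 3.11 and 2.97, Tmed10, a cargo receptor of transport vesicles, at 2.87, and Kdelr2, a receptor that retrieves ER proteins, at 2.86. Marked genes of this list were higher in 27 of 29 cases and unmarked ones, such as components of the signal recognition particle, in 2 of 13.

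Of the other lists with ER and Golgi proteins, ER-associated degradation had 7 of 18 over 2-fold higher and a median of 0.60, or 0.61 among its 11 marked genes. Cholesterol and fatty acid synthesis had 12 of 24 and a median of 0.90, all 12 being among its 14 marked genes, with Scd2, a fatty acid desaturase, at 54.9 at 1 h and 8.60 in untreated cells (2.54). Calcium pumps, channels and store sensors had 9 of 20 higher, 1 lower and a median of 0.77. Beside Rcan1, their highest genes were the calcium-binding proteins of the ER lumen Rcn3, Calu and Rcn2, at 3.29, 2.96 and 2.46. The Golgi glycosyltransferases and mannosidases had 7 of 13 higher and a median of 1.02. Golph3, a peripheral Golgi protein and the list's unmarked gene, was lower, with 25.4 at 1 h and 51.9 in untreated cells (-1.01). Stress sensors and their transcription factors had 6 of 12 higher and 1 lower. Creb3, a membrane-bound transcription factor, had 54.3 at 1 h and 10.4 in untreated cells (2.27). Xbp1, whose mRNA is spliced by the sensor IRE1 at the ER, had 52.7 and 11.5 in the cytosol (2.11) and 26.4 and 22.2 in the ER (0.24). Eif2ak2, the kinase PKR, had 32.2 and 71.1 (-1.12).

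**Figure D2:**
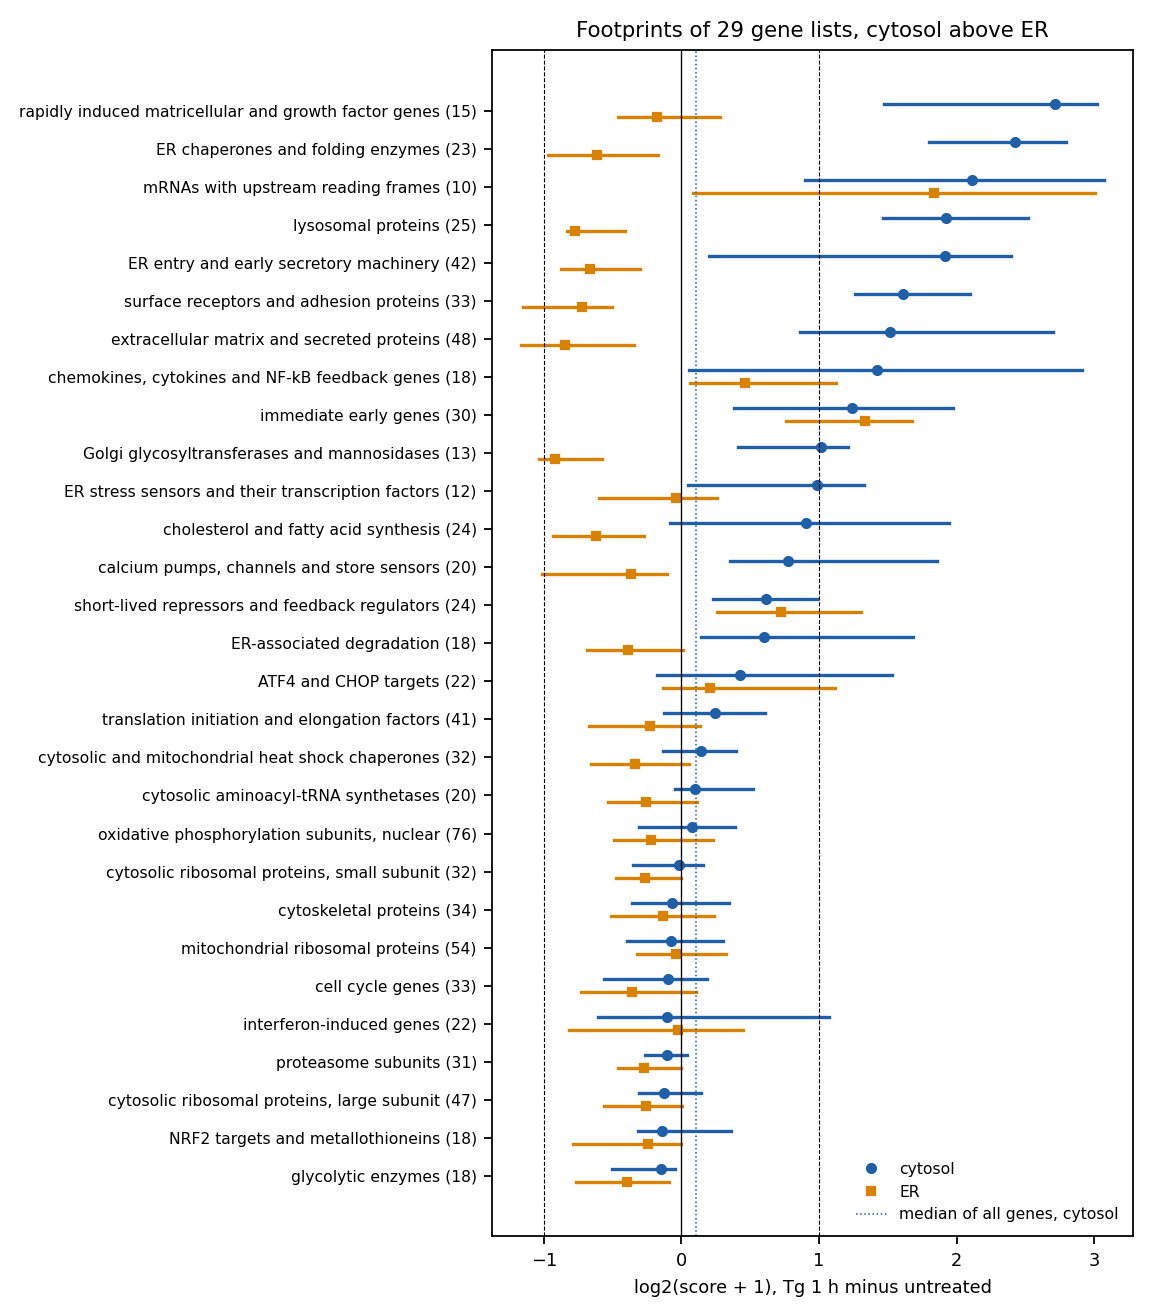
Medians (symbols) and quartiles (bars) of the difference Tg 1 h minus untreated, on the log2(score + 1) scale, for 29 gene lists in the cytosol (blue, upper) and ER fraction (orange, lower); gene numbers stand in brackets and dashed lines mark 2-fold. The chaperone, matrix, surface and lysosomal lists have cytosol medians between 1.52 and 2.42 and ER medians between -0.85 and -0.61, whereas mRNAs with upstream reading frames have 2.11 and 1.84.

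Of the 10113 genes, 9832 also had both ER values. The genes over 2-fold higher in the cytosol divided there. Of 1416 such genes, 711 lay below 0 in the ER, 608 of them marked, and 705 lay above 0, 530 of them unmarked. Over 2-fold higher in both fractions were 252 genes, of which 228 were unmarked, and over 2-fold higher in the cytosol but over 2-fold lower in the ER were 144, of which 139 were marked. Marked genes had a median of 1.04 in the cytosol and -0.38 in the ER, with 239 of 1509 over 2-fold lower in the ER. Summed over both fractions on the authors' scale, marked genes had a median of -0.11 and unmarked genes 0.03. In this sum 5.84% of the 9832 genes were over 2-fold higher and 3.31% lower. Marked genes had 66 of 1509 higher and 101 lower, and unmarked genes 508 of 8323 higher and 224 lower. It gave 4.60 for Ddit3, 4.99 for Rcan1 and 3.21 for Atf4. Among marked genes it gave 2.08 for Ccl7, 1.89 for Cxcl10 and 1.57 for Ptgs2. Smaller values were 0.59 for Csf1, 0.18 for the chemokine Ccl2, 0.12 for Cd44, -0.51 for Hsp90b1 and -1.07 for Col1a1.

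**Figure D3:**
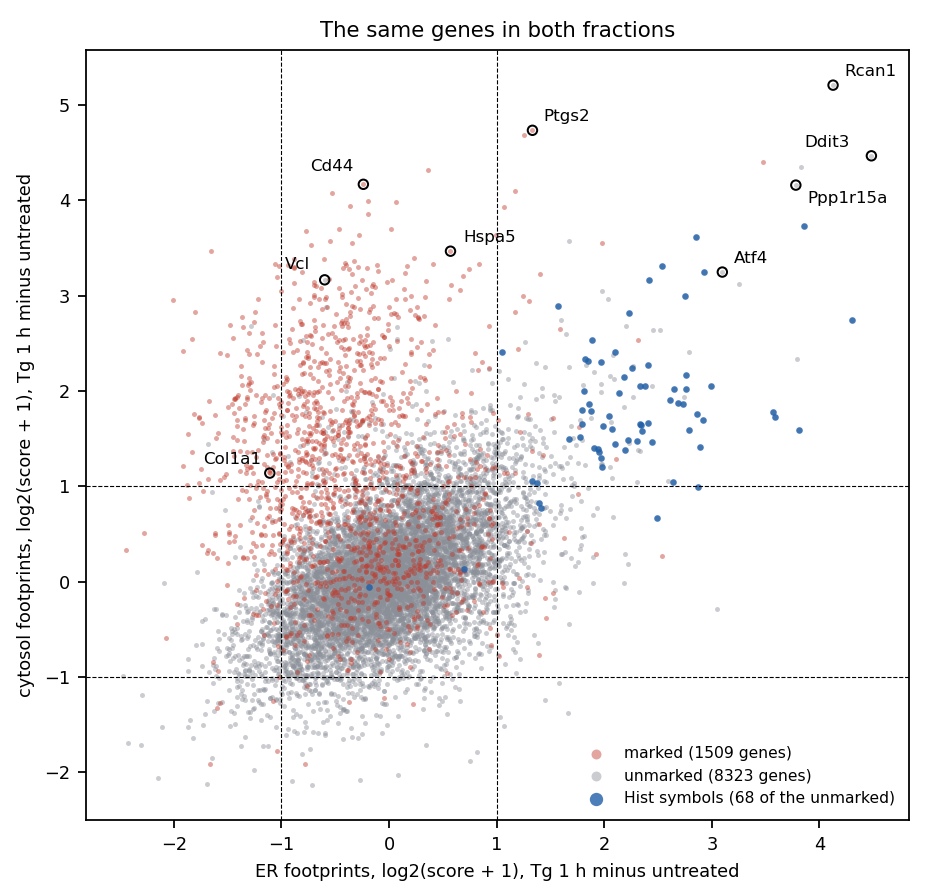
The difference Tg 1 h minus untreated in the cytosol (vertical axis) and the ER (horizontal axis), log2(score + 1), for 9832 genes with all 4 scores; dashed lines mark 2-fold, and genes whose symbols start with Hist are blue. Marked genes (red) fill the upper left, where 139 of 144 genes over 2-fold higher in the cytosol and lower in the ER are marked, and the upper right is mostly unmarked (228 of 252).

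Some unmarked genes lay with the marked ones. Of 633 unmarked genes over 2-fold higher in the cytosol, 103 were below 0 in the ER. Vcl, the adhesion protein vinculin, had 113 at 1 h and 11.7 in untreated cells in the cytosol (3.17), beside 237 and 359 in the ER (-0.60). Flna, the actin crosslinker filamin A, had 81.5 and 24.2 in the cytosol (1.71), beside 108 and 119 in the ER (-0.13). The others of this group named here were chosen after their values were seen. Spp1, which encodes the secreted protein osteopontin, is unmarked in the table and had 139 and 20.8 in the cytosol (2.68), beside 594 and 1446 in the ER (-1.28). Smc1a, a cohesin subunit, had 2.88 in the cytosol and -0.59 in the ER, and Nup155, a nuclear pore protein, had 2.09 and -0.39. Conversely, marked genes of mitochondria stayed near 0, a grouping also chosen after seeing the values. Of 25 marked subunits of oxidative phosphorylation, 2 were over 2-fold higher and the median was 0.16. Of 13 marked Slc25 carriers of the inner mitochondrial membrane, 2 were higher and the median was 0.03, whereas solute carriers of other families had 25 of 49 higher and a median of 1.05. In untreated cells the ER share of the footprint score had a median of 40% for the 25 marked subunits and 42.4% for the 13 marked carriers, against 91.2% for all marked genes.

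Cytosol mRNA scores existed for 3114 of the 10113 genes at both times, and most marked genes lacked one. Of these genes, 110 had mRNA over 2-fold higher in the cytosol at 1 h (3.53%) and 99 lower (3.18%). Among 230 marked genes the median difference was 1.09 in footprints and 0.31 in mRNA, and across these genes the differences correlated at a Pearson r of 0.60 and a Spearman rho of 0.57. Among 2884 unmarked genes the medians were 0.00 in footprints and -0.16 in mRNA, with r 0.26 and rho 0.19. These correlations run across genes of the same pooled libraries and are descriptions only. Of 296 genes over 2-fold higher in footprints, 75 were over 2-fold higher in mRNA and 220 were within 2-fold. Of 87 over 2-fold lower in footprints, 7 were lower in mRNA and 79 within.

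Chaperones stood high in cytosol mRNA as well. Of the 23 genes, 9 had cytosol mRNA scores at both times. All 9 were over 2-fold higher in cytosol mRNA, with a median of 2.20. Their list was not higher in the mRNA of the ER fraction. There 21 genes had a median of -0.36, with 1 over 2-fold higher and 2 lower. Of all 3724 genes with ER mRNA scores, 1.32% were over 2-fold higher and 5.34% lower, with a median of -0.18. For marked genes these values were 1.62%, 8.72% and -0.32. Hsp90b1 had a difference of 2.69 in footprints and 3.08 in mRNA, and Hspa5 3.47 in footprints and 1.91 in mRNA. Ptgs2 had 4.73 in footprints and 2.15 in mRNA, and Cd44 4.17 and 1.03. Ppp1r15a had 4.16 in footprints but -0.13 in mRNA. Ifrd1 had 2.29 in footprints and 0.01 in mRNA, Atf4 3.25 and 0.83, and Ddit3 4.47 and 1.40. The deposited ribosome density, the authors' ratio of footprints to mRNA, was over 2-fold higher for 14.9% of 3072 genes and over 2-fold lower for 5.99%. Its log2 difference was taken without adding 1, unlike the differences of scores beside it. It was 4.80 for Ppp1r15a, 3.15 for Ddit3, 2.35 for Atf4 and 2.24 for Ifrd1, against 1.65 for Hspa5 and -0.27 for Hsp90b1. By class it had a median of 0.83 in 215 marked genes and 0.18 in 2857 unmarked genes.

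**Figure D4:**
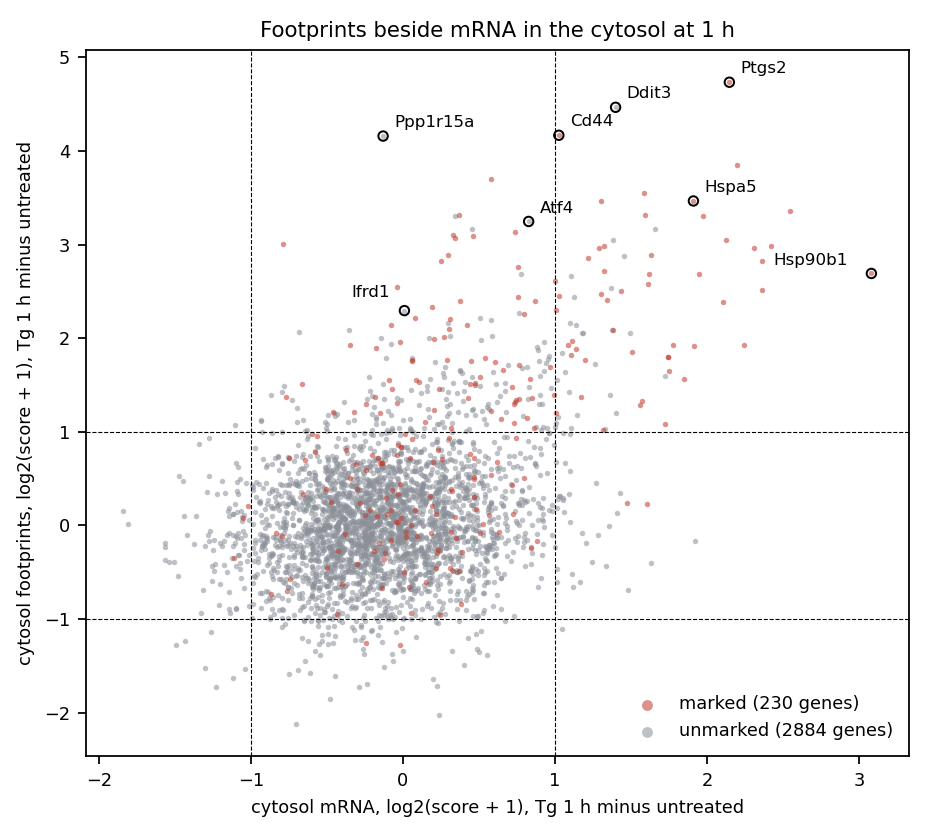
The difference Tg 1 h minus untreated in cytosol footprints (vertical axis) and cytosol mRNA (horizontal axis), log2(score + 1), for 3114 genes with all 4 scores; dashed lines mark 2-fold. Marked genes (red) spread to the upper right, up to 3.08 in mRNA for Hsp90b1, while Ppp1r15a, Ifrd1 and Atf4 lie high in footprints (4.16, 2.29 and 3.25) with mRNA differences of -0.13, 0.01 and 0.83.

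Genes were also placed by their untreated mRNA, which comes from libraries separate from those of the footprints. In 5 equal bins of the untreated ER minus cytosol mRNA difference, ordered toward the ER, the share of genes over 2-fold higher was 5.68%, 2.84%, 4.34%, 4.79% and 28.1%. Their medians were -0.11, -0.05, -0.01, 0.03 and 0.34. Marked and unmarked genes were then set apart by the place of their mRNA. Of 145 marked genes whose untreated mRNA was over 2-fold toward the ER, 115 were over 2-fold higher in cytosol footprints, with a median of 1.71. Of 127 marked genes whose mRNA was not, 23 were higher, with a median of 0.16. Of 243 unmarked genes with mRNA over 2-fold toward the ER, 44 were higher, with a median of 0.22, and of 2827 other unmarked genes 124 were higher, with a median of -0.03.

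The 1 h column was set beside the other times for genes with a score at every time, 9500 of the 10113. All 4 comparisons share the untreated column, so their values are given side by side and no overlap between them is counted. Marked genes had medians of 1.89, 1.14, 0.73 and 0.26 at 0.5, 1, 2 and 4 h, and unmarked genes 0.15, 0.04, 0.09 and -0.01. Of all genes with a value, 17.6% were over 2-fold higher at 0.5 h, 14% at 1 h, 11.2% at 2 h and 4.98% at 4 h, and 0.436%, 2.95%, 1.66% and 2.24% were over 2-fold lower. Among genes over 2-fold higher at 1 h, 641 of 769 marked ones had their highest score at 0.5 h, while 327 of 623 unmarked ones had it at 1 h, a count that the choice at 1 h favours.

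Set directly against 0.5 h, with no untreated column, 1 h had 94 of 9640 genes over 2-fold higher (0.975%) and 775 lower (8.04%), of which 514 were marked. Among the lowest genes in this direct comparison, ranked by it, were those of matrix, adhesion and folding. Col5a2, a collagen chain, had 17.4 at 1 h, against 187 at 0.5 h. Thbs1, the matricellular protein thrombospondin 1, had 46.5 at 1 h and 403 at 0.5 h, and Hsp90b1 49.8 and 268. Hspa5 had 457, 95.4, 50.8 and 23.8 at 0.5, 1, 2 and 4 h, against 7.72 in untreated cells. Col1a1 had 112, 14.1, 7.82 and 4.38, against 5.85 in untreated cells. The stress regulators had other time courses. Ddit3 had 53.7, 128, 123 and 133 at 0.5, 1, 2 and 4 h, and Ppp1r15a 53.0, 58.6, 52.0 and 37.6. Rcan1 had 219, 766, 1447 and 304, and Xbp1 24.5, 52.7, 96.1 and 96.9. Among the genes highest against 0.5 h were Fas, a death receptor, with 43.5 at 1 h and 8.46 at 0.5 h, and the chaperone cofactor Sdf2l1, with 27.7 and 8.51. Sdf2l1 thus stood apart from most of its list, in which 19 of 23 genes were over 2-fold lower at 1 h than at 0.5 h. Tnfaip3 and Nfkbia had their highest scores at 1 h, with 41.0 and 456.

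**Figure D5:**
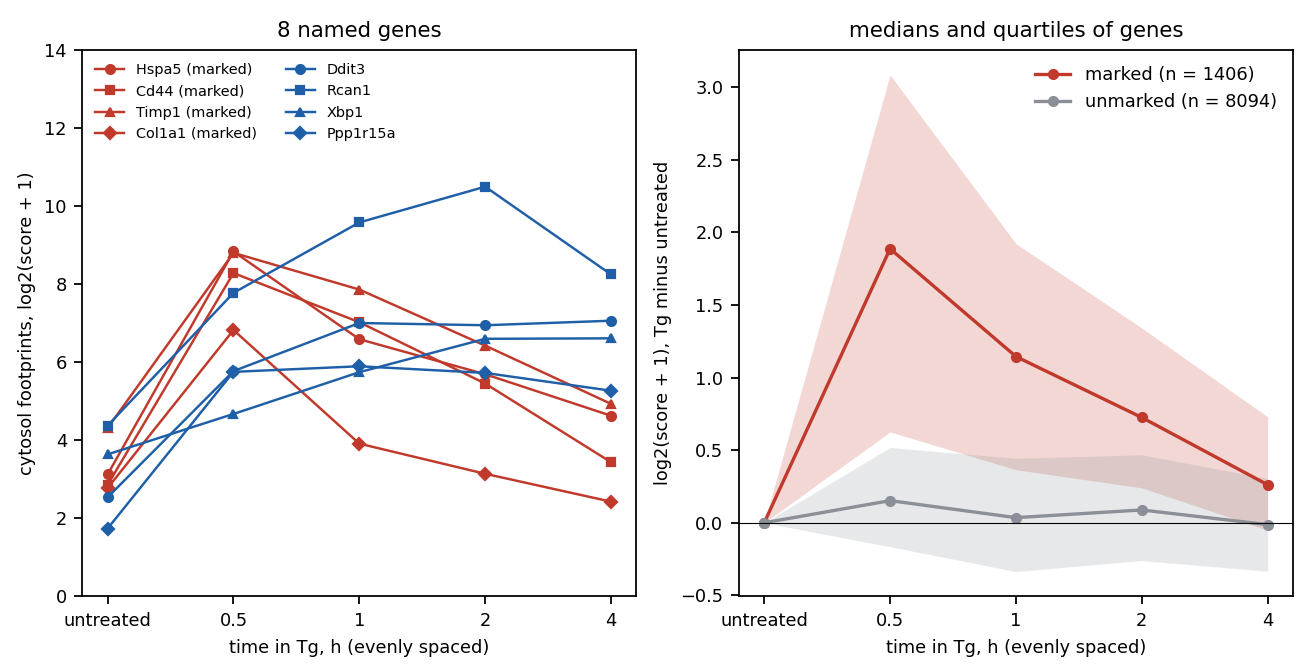
Left, cytosol footprint scores, log2(score + 1), of 8 named genes in untreated cells and at 4 times of Tg; right, medians (lines) and quartiles (bands) of the difference from untreated cells for 1406 marked and 8094 unmarked genes. Marked genes peak at 0.5 h with a median of 1.89 and are at 1.14 at 1 h, while Ddit3, Rcan1 and Xbp1 stand higher at 1 h than at 0.5 h.

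Genes over 2-fold lower in the cytosol were few and spread over functions. The 12 lowest above the median level began with Phyh, a peroxisomal enzyme of phytanic acid oxidation, which had 5.61 at 1 h and 28.1 in untreated cells (-2.14). Ppm1a, a protein phosphatase, had 4.74 and 24 (-2.12). Dclk1, a microtubule-associated kinase, had 6.84 and 32.7 (-2.10). Eif4ebp2, a repressor of cap-dependent initiation, had 6.02 and 28.3 in the cytosol (-2.06) and was lower in the ER as well (-2.15). Sod2, the mitochondrial superoxide dismutase, had 58.9 and 197 (-1.73), beside -1.23 in cytosol mRNA. Il1rn, the interleukin-1 receptor antagonist, had 31.7 and 122 (-1.91) and is marked, as is Tmem65, at -1.77. Bola3, Odc1, Ak4 and Rasl2-9 were also among the 12, at -2.03, -1.86, -1.72 and -1.71. Of the 12 genes, 9 were over 2-fold lower in the ER too, Phyh and Bola3 were within 2-fold there and Dclk1 had no ER score at 1 h. In all, 85 genes were over 2-fold lower in both fractions, 6 of them marked, and 241 of 281 genes lower in the cytosol lay below 0 in the ER.

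Lists of cytosolic, nuclear and mitochondrial housekeeping proteins stayed near the median of all genes. The large ribosomal subunit had 1 of 47 over 2-fold higher and 1 lower, with a median of -0.12, and the small subunit 0 of 32 either way and -0.02. Ribosomal protein genes have many near-identical copies, so single values such as 1.59 for Rpl41 and -1.13 for Rpl12 are uncertain. Proteasome subunits had 0 of 31 either way and a median of -0.11, and heat shock chaperones 0 of 32 and 0.14, with Hspa8 at 1618 at 1 h and 1704 in untreated cells. Translation factors had 3 of 41 over 2-fold higher and a median of 0.25. Eif4a2, a helicase of initiation, had 327 at 1 h and 72.5 in untreated cells (2.16) and was also higher in the ER (2.05), while Eif3a had 1.30 and Eif4g1 1.13 in the cytosol. Aminoacyl-tRNA synthetases had 2 of 20 higher, Rars and Qars, and a median of 0.10. In untreated cells the ER share of the footprint score was 32.2% for Eif4a2. It was 66.3% for Eif3a, 76.5% for Eif4g1, 61.6% for Rars and 86.6% for Qars. Oxidative phosphorylation subunits had 3 of 76 higher, 1 lower and a median of 0.08, and mitochondrial ribosomal proteins 1 of 54 each way and -0.07. The glycolytic list, drawn up to include the solute carrier Slc2a1 beside enzymes, had 2 of 18 higher and a median of -0.15. Higher were its 1 marked gene, at 2.26, and 1 of its 17 unmarked genes. Cytoskeletal proteins had 2 of 34 higher, Vcl and Flna, and a median of -0.07. Cell cycle genes had 2 of 33 higher, 2 lower and a median of -0.10, and NRF2 targets and metallothioneins 1 of 18 and -0.14. Interferon-induced genes were split, with 6 of 22 higher, 1 lower and a median of -0.11. Higher were 3 of the 5 marked ones, with a median of 1.57, and 3 of the 17 unmarked ones, with a median of -0.38. Bst2, a marked membrane protein that tethers virions, had 112 at 1 h and 20.5 in untreated cells (2.39), beside -0.28 in the ER. The transcription factor Irf1 had 81.5 and 29.5 (1.44), beside 1.74 in the ER. Ifit3, which binds viral RNA, had 31.1 and 81.1 (-1.35), beside -1.47 in the ER.

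A pair of gene families outside the lists were chosen after their values were seen. Of 68 genes with Hist symbols, which encode replication-type histones and are unmarked, 62 were over 2-fold higher in the cytosol and the median was 1.74, beside 2.24 in the ER and 0.88 in the cytosol mRNA of 46 of them. Their median cytosol score was 603 at 1 h and 157 in untreated cells. Over time their cytosol medians were 1.26, 1.74, 1.45 and 0.17 at 0.5, 1, 2 and 4 h. Histone genes have near-identical copies, so the number of separate genes behind these counts is uncertain. Of 292 zinc-finger genes with Zfp symbols, 90 were over 2-fold higher (14% over all genes), 1 was lower and the median was 0.71, beside 0.55 in the ER. Their scores were low, with a median of 4.38 at 1 h and 2.18 in untreated cells, and of the 29 with cytosol mRNA scores 0 were over 2-fold higher in mRNA (3.53% of all genes were) and 2 were lower (3.18%).

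Genes with a score in only 1 of the 2 columns lie outside the 10113 and were counted apart. A score at 1 h but none in untreated cells was held by 1065 genes, of which 798 were marked (74.9%). A score in untreated cells but none at 1 h was held by 272 genes, of which 32 were marked. Their scores were low, at most 26.7 and 8.54. Blanks are not explained in the table, so no fold is given. Among the highest at 1 h were Ptn, a secreted heparin-binding growth factor, with 25.3, and Cd151, a tetraspanin, with 19.3.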

How the data were processed

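The authors deposited the Tg table with 3 header lines and 22417 genes. Footprints and mRNA are given there as a score for each gene, merged over the replicates of a group, whose scaling by the authors is unstated, and density as the authors' ratio of footprints to mRNA. A TRUE or FALSE column has no header, per the file headers. Bowtie is named without a version, per the submitters' processing notes, and a genome build was not given in the sources used here. Footprints were made by nuclease digestion and mRNA libraries after removal of ribosomal RNA, per the labels' protocols.

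Differences of scores were computed as log2(score + 1) and those of density as plain log2. Python 3.11.15, pandas 2.3.3 and NumPy 2.4.6 were used, with Matplotlib 3.10.9 for plots. The computation was run on simulated columns with known changes, which checks its arithmetic and not the reliability of a count over 2-fold. Neither counts nor replicate values were at hand, so counting precision cannot be given and a gene over 2-fold is counted, not tested. The 10113 genes, the lists and the naming rule were chosen with earlier results of these data known. The rule named the 12 highest and 12 lowest genes above the median level, with symbols taken as likely copies left out. It also named 12 fixed genes, and up to 4 genes over 2-fold per list, or the 2 most abundant where none was. Alternatives were a pseudocount of 0.1, a filter on level, genes with every footprint value, blanks as 0, centring, equal sums, and place by footprints. With no replicate spread, an untested value was said to move when it differed by over 1.5-fold. A planned description of protein sequences was not run. Promoters were those of RefSeq, GRCm38.p6. Values of some genes that the rule named are not reported here.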

Additional observations from a re-analysis of the deposited data

Results flagged for a closer look

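In 7 gene lists and in the marked genes as a whole, the median was over 2-fold higher in the cytosol and below 0 in the ER. The difference between the fractions was not tested, since each value is 1 pooled score. How the authors scaled the fractions against each other is not stated. The cytosol median minus the ER median was 3.04 for ER chaperones and folding enzymes, where 19 of 23 genes were above 0 in the cytosol and below 0 in the ER. It was 2.89 for rapidly induced matricellular and growth factor genes (8 of 15 genes), 2.70 for lysosomal proteins (23 of 25) and 2.58 for ER entry and early secretory machinery (32 of 42). Extracellular matrix and secreted proteins had 2.36 (46 of 48), surface receptors and adhesion proteins 2.33 (31 of 33) and Golgi glycosyltransferases and mannosidases 1.94 (12 of 13). For all marked genes it was 1.42, with 944 of 1509 genes going both ways.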

How the results depend on the processing

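No paired analysis was possible because the table holds 1 pooled value per group, and leaving out each replicate was not run for the same reason. The depth is unknown, so low scores carry an unknown counting error. The count of genes over 2-fold lower was 562 with a pseudocount of 0.1, 454 with differences centred on the median gene (a shift of -0.10 for all genes) and 659 with columns scaled to the same sum (a shift of -0.21), against 298. Above the median level, 138 genes were lower and 539 higher, since fewer genes were counted. The count over 2-fold higher was otherwise between 1107 and 1926, and the marked minus unmarked median between 0.65 and 1.45 over the 6 alternatives. The fifth of genes farthest toward the ER exceeded the fifth nearest the cytosol by 0.45 when placed by untreated mRNA and by 1.09 when placed by untreated footprints, which share the untreated cytosol column. The Golgi list had a median of -1.01 above the median level, where Golph3 alone was left. Of 92 named genes over 2-fold, Hk2, Mrps5 and Uqcrc2 were no longer so after centring, and Col1a1, Cox4i1 and Eif4g1 besides with equal sums.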

Other observations

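Vmn1r205, listed as a vomeronasal receptor and marked, had the second highest difference of all genes, 5.09, but lay below the level needed for ranking. Its cytosol score was 43.0 at 0.5 h and 59.8 at 1 h, against 0.784 in untreated cells, and it was blank at 2 and 4 h and in the ER at 1 h. The lowest difference of all genes, -2.34, was that of Iigp1, an interferon-inducible GTPase, with 0.469 at 1 h and 6.45 in untreated cells. Both were picked after their values were seen. The deposited density differed from the ratio of the deposited scores: at 1 h, 3.26% of marked genes and 1.42% of unmarked genes lay outside 0.5 to 1.5 times that ratio, and in untreated cells 1.34% and 0.409%.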
